A study of Mus musculus with 12 samples.

Results

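Interferon-stimulated genes are the genes that cells switch on when an interferon binds its receptor. A list of 39 such genes and their regulators, chosen by gene symbol, was followed through RNA sequencing of whole mouse cornea. Of the 39, 37 were found by symbol in a table of 19702 genes, and the antiviral GTPase genes Mx1 and Mx2 were not analysed here. All 37 passed the filter on low counts, which left 16124 genes for testing. The study injured the ocular surface with benzalkonium chloride (BAK), a detergent preservative of eye drops, and treated injured corneas with UCS or UCPRP. The series title describes both as biologics derived from cord blood, and the labels do not spell the abbreviations out. Each group held 3 libraries, and each library was made from a pool of 6 corneas of 3 mice.

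The 4 groups were Control (neither injury nor treatment), Vehicle (BAK injury, described in the treatment label as untreated), UCS (BAK injury and UCS) and UCPRP (BAK injury and UCPRP). BAK was given as 5 µl of a 0.2% solution daily for 14 days, and UCS or UCPRP as 5 µl of a 20% preparation 3 times daily for 10 days. The sources used here do not give mouse strain, sex, age, hour of collection or the interval between the BAK course and the UCS or UCPRP course. Since mice were pooled, p-values measure the spread between pools and not between animals.

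Type I interferons (the alpha and beta families) act through the receptor chains IFNAR1 and IFNAR2. Type III interferons (the lambda family) act through IFNLR1, which is found mainly on epithelia, and IL10RB. Both receptors activate the kinases JAK1 and TYK2, and the resulting complex, which holds STAT2 and IRF9, binds the interferon-stimulated response element in the promoters of its targets. Interferon gamma uses a separate receptor and acts through another element, the gamma-activated site. Many tissues keep these genes at a resting level, from which infection raises them.

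The response element was looked for in the promoters of the members, because it is the sequence through which type I and type III interferons reach these genes. RefSeq promoters (build GRCm38.p6, from 250 bases before to 50 bases after the start) were available for 29 of the 37 members. The core of the element, spelled GAAA, any 2 bases and GAAA, was read on both strands with overlapping copies allowed. It occurred in 14 of the 29 (48.3%), counting a gene if any of its promoters held it, against 3.99% of 27025 genes counted likewise. It was found in 6 of the 12 members with a promoter that were lower in Vehicle than in Control, and in 8 of the 17 that were not called there. The gamma-activated site was spelled TTC, any 3 bases and GAA and read the same way. It occurred in 6 of 29 members (20.7%), against 9.55% of the 27025 genes. A match describes the letters of the window and is neither a binding site nor a cause of any difference. The 160 bases before the start are printed for 5 members that hold the response element core, with every copy in capitals (GAAA first, or TTTC first on the opposite strand). Isg15 was lower in all 3 injured groups, Ifit1 and Rsad2 were lower in the UCS and UCPRP groups, and Bst2 and Gbp2 were lower in none.
Isg15 (chr4:156200819-156200978, minus strand): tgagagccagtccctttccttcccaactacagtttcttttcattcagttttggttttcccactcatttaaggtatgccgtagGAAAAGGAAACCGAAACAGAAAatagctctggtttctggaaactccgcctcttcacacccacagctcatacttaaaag
Ifit1 (chr19:34640729-34640888, plus strand): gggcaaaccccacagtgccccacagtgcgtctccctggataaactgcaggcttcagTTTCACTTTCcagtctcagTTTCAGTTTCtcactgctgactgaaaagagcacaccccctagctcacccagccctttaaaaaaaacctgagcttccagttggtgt
Rsad2 (chr12:26456453-26456612, minus strand): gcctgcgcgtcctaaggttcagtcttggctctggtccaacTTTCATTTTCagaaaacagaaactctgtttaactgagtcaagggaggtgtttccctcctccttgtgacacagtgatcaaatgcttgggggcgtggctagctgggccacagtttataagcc
Bst2 (chr8:71537473-71537632, minus strand): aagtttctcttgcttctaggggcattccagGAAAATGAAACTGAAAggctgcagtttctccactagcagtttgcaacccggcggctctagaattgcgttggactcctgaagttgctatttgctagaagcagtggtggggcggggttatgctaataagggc
Gbp2 (chr3:142620503-142620662, plus strand): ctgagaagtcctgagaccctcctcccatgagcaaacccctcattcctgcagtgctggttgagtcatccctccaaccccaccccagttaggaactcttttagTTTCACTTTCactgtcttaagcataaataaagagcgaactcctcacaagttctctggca
The Isg15 window held 3 overlapping copies, the Ifit1 window held 2 separate copies on the opposite strand, and Bst2, whose level did not differ between groups by this test, held 2 overlapping copies.

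Library totals ran from 18554205 to 20443757 estimated counts, and levels are given as CPM (counts divided by the library total and put on a common scale of 1e6), scaled by the trimmed mean of M values (TMM). CPM are not corrected for gene length, so levels are compared between libraries. Genes were ranked by mean CPM only to choose which to print, which is not a ranking by abundance. The labelled tissue was present in Control, where Krt12, the keratin that defines corneal epithelium, stood at 18900, 32870 and 15900 CPM. In the injured libraries Krt12 lay between 3.29 and 186 CPM, and Muc5ac, the gel mucin of goblet cells, rose from 0.412 to 2.33 CPM in Control to 163 to 655 CPM. Markers of retina and lens were found in every library at uneven levels, with Cryaa, a lens crystallin, between 13.6 and 14990 CPM. In bulk tissue, fewer cells of a type and less RNA per cell cannot be told apart.

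The first comparison, Vehicle against Control, measures the injury without a biologic. Of the 37 members, 16 were lower in Vehicle (43.2%) and none was higher, by the quasi-likelihood test of edgeR at an adjusted p under 0.05, with Benjamini-Hochberg adjustment across the 16124 genes. Over all genes, 6.92% were called lower and 9.58% higher in the same comparison, 16.5% in all. The median log2 fold change of the members was −0.656, against −0.0013 over all genes, and 33 of the 37 values were below 0. In 18 members every Vehicle library lay below every Control library, which held for 15.4% of all genes. The reverse held for no member and for 15.2% of all genes. The members called lower were Ifi27l2a, Oasl1, Oas2, Oas3, Isg15, Ifit3, Oas1a, Ifi44, Dhx58, Irf7, Usp18, Ddx58, Ifih1, Xaf1, Oasl2 and Irf9. The count fell to 9 without Vehicle 2, to 10 without Vehicle 3 and to 10 without Control 2, whereas leaving out Control 3 raised it to 20. In the same order, 3.85%, 5.67%, 5.03% and 6.87% of all genes were lower. Without Control 2 the median was −0.357.

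**Figure D1:**
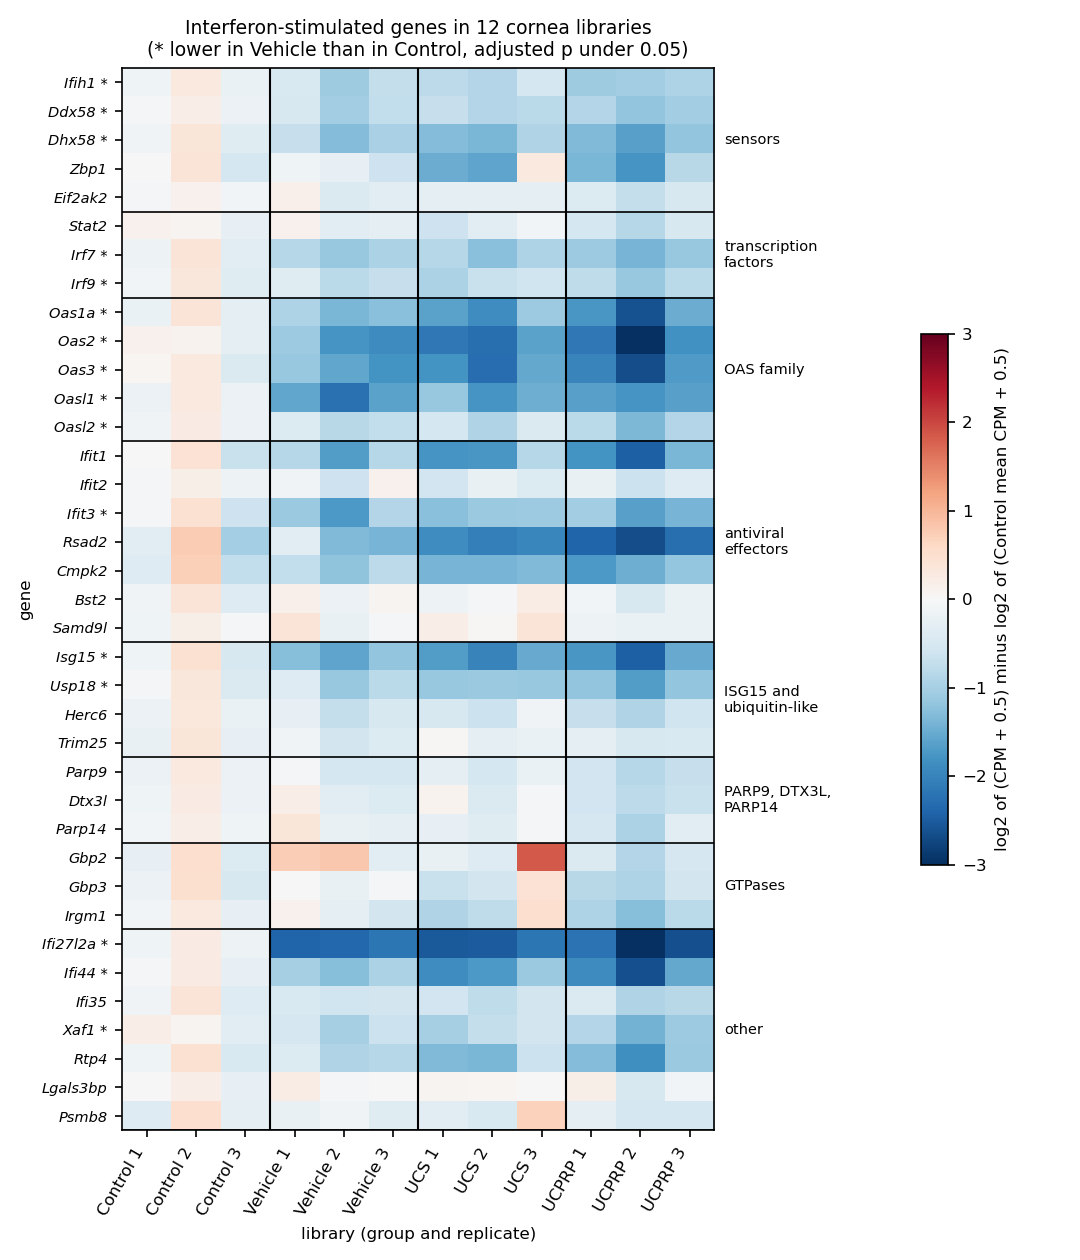
Difference in log2 of (CPM + 0.5) between each library (columns, 3 per group) and the Control mean, for the 37 members (rows, grouped by role); blue is lower and red is higher, and an asterisk marks the 16 members lower in Vehicle than in Control. Most members are blue in all 9 injured libraries, with Ifi27l2a, Oas2 and Oas3 among the deepest, while Gbp2 is red in UCS 3.

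All 5 listed genes of the OAS family were called in Vehicle by edgeR. These genes encode 2'-5'-oligoadenylate synthetases, which answer double-stranded RNA by making the signal that activates the RNA-cutting enzyme RNase L, and the Oasl genes encode their relatives. The median log2 fold change of the 5 in Vehicle was −1.48. Oas2 (chr5:120730333-120749886) stood at 221, 218 and 168 CPM in Control, 94.1, 58.9 and 53.9 in Vehicle, 45.2, 42.04 and 65.7 in UCS and 45.6, 17.3 and 57.1 in UCPRP. The highest Vehicle library was below the lowest Control library, and UCPRP 2 was the lowest of all 12. Its log2 fold change in Vehicle against Control was −1.55 (SE 0.371, adjusted p = 0.0145) by edgeR.

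Oas3, from the same gene cluster on chromosome 5, stood at 96.9, 112 and 67.6 CPM in Control, 41.8, 31.2 and 26.4 in Vehicle, 26.1, 18.7 and 31.7 in UCS and 22.95, 14.1 and 28.1 in UCPRP. The 3 Control libraries were the highest 3, and the log2 fold change in Vehicle was −1.48 (SE 0.287, adjusted p = 0.00457) by edgeR. Oas1a stood at 69.4, 104 and 65.8 CPM in Control, 41.4, 30.5 and 33.3 in Vehicle, 26.01, 21.7 and 36.9 in UCS and 23.5, 12.5 and 27.9 in UCPRP. Control and the injured groups did not overlap, and the log2 fold change in Vehicle was −1.18 (SE 0.292, adjusted p = 0.0171) by edgeR. The transcripts of Oas1a share 40.9% of their stretches of 100 bases with those of Oas1g, so its counts are uncertain between the 2 genes. Without Vehicle 2 or Vehicle 3 neither Oas1a nor Oas2 was called.

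Oasl1, which restrains translation of Irf7 in mouse cells, stood at 199, 274 and 196 CPM in Control, 75.8, 47.3 and 72.9 in Vehicle, 102, 65.5 and 80.6 in UCS and 71.8, 65.2 and 71.7 in UCPRP. Control was high in all 3 libraries and the injured groups overlapped with one another. Its log2 fold change in Vehicle was −1.77 (SE 0.212, adjusted p = 0.000276) by edgeR. Oasl2 stood at 433, 559 and 412 CPM in Control, 349.9, 262 and 279.9 in Vehicle, 323, 249.9 and 346 in UCS and 269, 185 and 255 in UCPRP. Vehicle was below Control without overlap, and the log2 fold change was −0.66 (SE 0.193, adjusted p = 0.0393) by edgeR, a call lost in 8 of 23 alternative settings.

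Among the sensors of viral nucleic acid, 3 of 5 were lower in Vehicle. Ddx58, the gene for the RNA sensor RIG-I, stood at 141, 167 and 128 CPM in Control, 104, 69.7 and 86.9 in Vehicle, 90.1, 78.6 and 83.4 in UCS and 78.3, 63.3 and 70.5 in UCPRP. Ifih1, the gene for the long double-stranded RNA sensor MDA5, stood at 78.5, 105 and 74.8 CPM in Control, 62.1, 40.5 and 52.4 in Vehicle, 49.8, 46.3 and 59.03 in UCS and 40.7, 41.7 and 45.4 in UCPRP. In both, all 9 injured libraries were below all 3 Control libraries, with log2 fold changes in Vehicle of −0.74 (SE 0.151, adjusted p = 0.00604) and −0.73 (SE 0.17, adjusted p = 0.0122) by edgeR. Dhx58, the gene for LGP2, a regulator of the other RIG-I-like sensors, stood at 44.2, 61.03 and 36.9 CPM in Control, 28.9, 18.8 and 23.7 in Vehicle, 18.9, 17.9 and 25.2 in UCS and 18.7, 15.04 and 20.7 in UCPRP. The groups did not overlap with Control, and the log2 fold change in Vehicle was −0.99 (SE 0.218, adjusted p = 0.00918) by edgeR.

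The remaining sensors were not called in Vehicle. Eif2ak2, the gene for the RNA-activated kinase PKR, stood at 87.6, 97.7 and 84.3 CPM in Control, 99.4, 65.9 and 71.2 in Vehicle, 74.9, 73.1 and 72.98 in UCS and 67.6, 54.9 and 64.04 in UCPRP. Vehicle 1 was the highest library of the 12, so Vehicle and Control overlapped, and the log2 fold change was −0.19 (SE 0.143, adjusted p = 0.443) by edgeR. Zbp1, a sensor of left-handed nucleic acid that can start necroptosis, ranged from 17.1 to 77.7 CPM, with a log2 fold change of −0.32 (SE 0.458, adjusted p = 0.726) in Vehicle by edgeR. UCS 3 reached 72.2 CPM of Zbp1 while UCS 1 and UCS 2 were at 20.6 and 19.4.

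Of the 3 transcription factors, Irf7 and Irf9 were lower in Vehicle and Stat2 was not called. Irf7, the factor that amplifies type I interferon production, stood at 187, 269.8 and 164 CPM in Control, 114, 94.2 and 107 in Vehicle, 114, 86.3 and 109 in UCS and 96.8, 78.7 and 94.2 in UCPRP. Every injured library was below every Control library, and the log2 fold change in Vehicle was −0.98 (SE 0.181, adjusted p = 0.00352) by edgeR. Irf9, the DNA-binding subunit of the complex that reads the response element, stood at 117, 158 and 96.2 CPM in Control, 95.3, 70.5 and 76.3 in Vehicle, 63.5, 77.5 and 81.3 in UCS and 72.96, 55.9 and 70.6 in UCPRP. Vehicle 1 lay just below Control 3, and the log2 fold change was −0.62 (SE 0.188, adjusted p = 0.0454) by edgeR. The Irf9 call was lost in 12 of 23 alternative settings. Stat2, its partner, stood at 117, 112 and 88.8 CPM in Control, 115, 85.02 and 86.7 in Vehicle, 68.5, 83.4 and 100.1 in UCS and 73.8, 58.7 and 76.3 in UCPRP. Vehicle overlapped Control and UCPRP did not, and the log2 fold change in Vehicle was −0.15 (SE 0.175, adjusted p = 0.668) by edgeR.

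Of 7 direct antiviral effectors, Ifit3 was the one called lower in Vehicle by edgeR, and DESeq2 also called Ifit1 and Cmpk2. Ifit3, whose protein partners IFIT1 and IFIT2 on viral RNA, stood at 280.3, 403 and 190.4 CPM in Control, 135, 88.3 and 158 in Vehicle, 122, 135 and 137 in UCS and 141, 94.1 and 111 in UCPRP. All 9 injured libraries were below the lowest Control library, and the log2 fold change in Vehicle was −1.19 (SE 0.273, adjusted p = 0.0115) by edgeR. Its transcripts share 31.7% of their stretches of 100 bases with those of Ifit3b, so its counts are uncertain between both. Ifit1, which binds viral RNA caps, stood at 201, 272 and 126 CPM in Control, 110, 62.1 and 110.3 in Vehicle, 58.5, 59.01 and 109.6 in UCS and 57.4, 36.3 and 76.8 in UCPRP. Groups did not overlap with Control, but the Control values spread from 126 to 272 CPM and the log2 fold change of −1.08 (SE 0.368, adjusted p = 0.0708) did not pass by edgeR.

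Rsad2, the gene for viperin, an enzyme that makes a chain-terminating nucleotide, stood at 23.1, 49.3 and 13.9 CPM in Control, 22.5, 11.2 and 10.7 in Vehicle, 7.55, 6.56 and 6.996 in UCS and 5.01, 4.16 and 5.60 in UCPRP. Vehicle 1 lay inside the Control range, whereas every UCS library was below every Vehicle library and every UCPRP library below every UCS library. The log2 fold change in Vehicle was −0.96 (SE 0.405, adjusted p = 0.143) by edgeR, which did not pass. Cmpk2, the mitochondrial nucleotide kinase gene next to Rsad2, stood at 17.9, 38.7 and 13.8 CPM in Control, 13.9, 9.92 and 13.4 in Vehicle, 8.61, 8.62 and 9.14 in UCS and 6.78, 8.11 and 10.2 in UCPRP. Vehicle 1 lay just above Control 3, and the log2 fold change was −0.92 (SE 0.322, adjusted p = 0.0794) by edgeR.

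The other effectors lay near Control. Samd9l, a restriction factor that slows translation, stood at 207, 257 and 221 CPM in Control, 298, 197 and 218 in Vehicle, 262, 234 and 299 in UCS and 207, 199 and 197 in UCPRP. Vehicle 1 and UCS 3 were the highest libraries, above all of Control, and the log2 fold change in Vehicle was 0.06 (SE 0.159, adjusted p = 0.867) by edgeR. Ifit2 and Bst2, the gene for the virion tether tetherin, had log2 fold changes of −0.17 (SE 0.188, adjusted p = 0.632) and 0.03 (SE 0.189, adjusted p = 0.942) in Vehicle by edgeR, with ranges over the 12 libraries of 17.5 to 30.9 and 25.4 to 46.4 CPM.

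**Figure D2:**
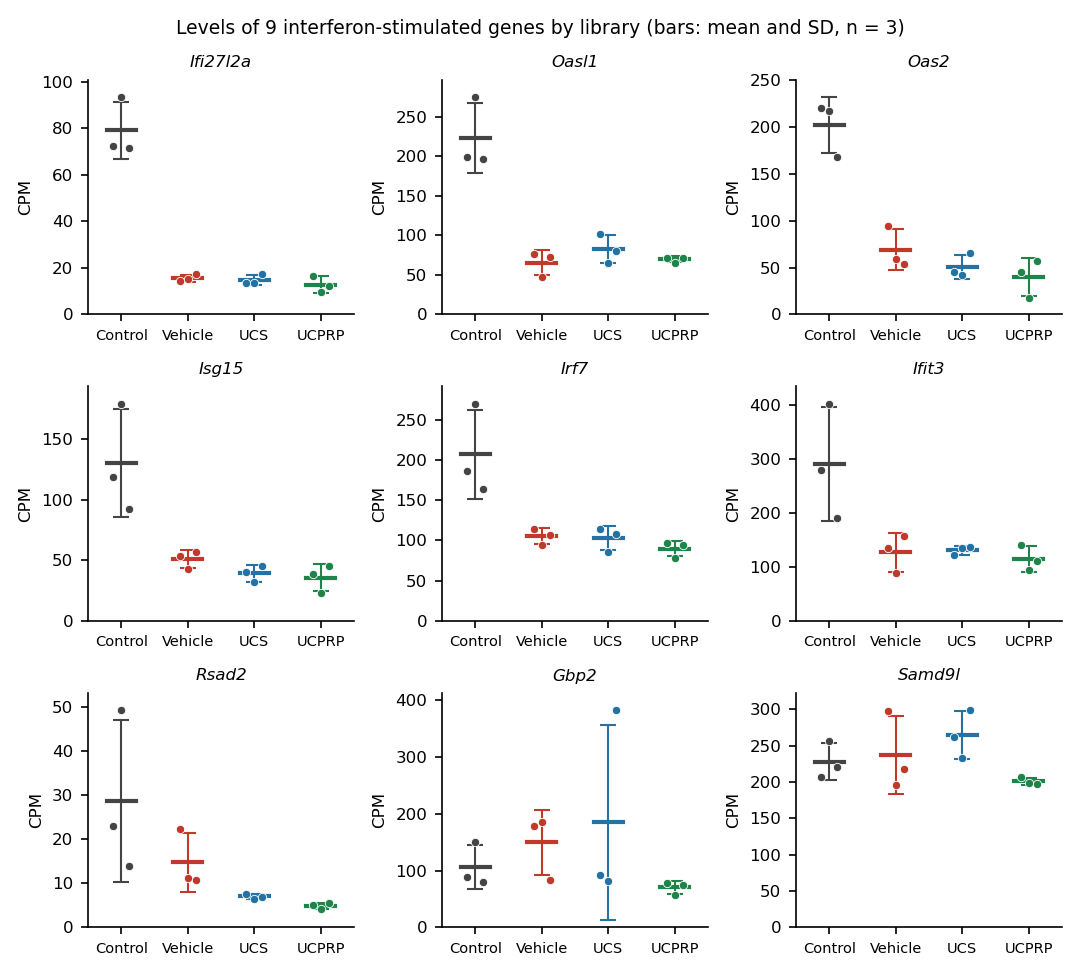
CPM of 9 members in the 12 libraries, 1 panel per gene, with points for libraries, thick bars for group means and error bars for the SD (n = 3). Control stands above all injured libraries for Ifi27l2a, Oasl1, Oas2, Isg15, Irf7 and Ifit3, Rsad2 is lowest in UCPRP, Gbp2 is set apart by UCS 3 at 383 CPM, and Samd9l overlaps between Control, Vehicle and UCS.

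Isg15 encodes a ubiquitin-like protein that is joined to other proteins during an interferon response, and Usp18 the protease that removes it and that also dampens IFNAR2 signalling. Isg15 (chr4:156199424-156200818), whose promoter window held 3 copies of the response element letters, stood at 119, 179 and 92.3 CPM in Control, 53.2, 42.8 and 56.95 in Vehicle, 40.4, 31.9 and 45.3 in UCS and 38.5, 23.4 and 45.02 in UCPRP. All 9 injured libraries were below the lowest Control library, and the log2 fold change in Vehicle was −1.35 (SE 0.273, adjusted p = 0.00586) by edgeR. Usp18 stood at 36.7, 47.7 and 27.7 CPM in Control, 28.7, 16.9 and 20.98 in Vehicle, 16.8, 17.1 and 16.8 in UCS and 16.2, 11.3 and 16.2 in UCPRP. Vehicle 1 lay just above Control 3, and the log2 fold change of −0.75 (SE 0.227, adjusted p = 0.0432) passed by edgeR but was lost in 12 of the same 23 settings.

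The ligase genes Herc6 and Trim25 were not called in Vehicle. Herc6, the main ligase for ISG15 in mice, stood at 51.1, 71.4 and 49.8 CPM in Control, 48.6, 34.5 and 41.1 in Vehicle, 40.7, 36.7 and 53.1 in UCS and 35.6, 30.8 and 37.7 in UCPRP. Vehicle lay below Control, and UCS 3 lay inside the Control range. A share of 10.3% of its stretches of 100 bases is found in Gm45193 as well, so its counts are uncertain. Trim25, which ubiquitinates RIG-I, stood at 189, 283 and 186 CPM in Control, 206, 149.8 and 165 in Vehicle, 226, 179 and 189.9 in UCS and 178, 157 and 159 in UCPRP. Control 2 was the highest library and the other 2 Control libraries lay among Vehicle and UCS. The log2 fold changes in Vehicle were −0.47 (SE 0.184, adjusted p = 0.112) and −0.34 (SE 0.179, adjusted p = 0.247) by edgeR.

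Parp9 and Dtx3l, which share a promoter region and encode partners in a ubiquitin ligase complex, and Parp14, a larger ADP-ribosyltransferase, were not called in Vehicle. Parp9 stood at 122, 169 and 121 CPM in Control, 134, 94.9 and 94.5 in Vehicle, 111, 95.3 and 119 in UCS and 91.6, 75.9 and 84.9 in UCPRP. Dtx3l stood at 114, 149 and 111 CPM in Control, 143, 99.7 and 93.5 in Vehicle, 133, 92.96 and 123 in UCS and 83.4, 72.2 and 78.7 in UCPRP. Vehicle 1 was inside the Control range for both, and all 3 UCPRP libraries were below all Control and all Vehicle libraries. Parp14 stood at 109.7, 135 and 107 CPM in Control, 149.9, 100.2 and 94.8 in Vehicle, 98.5, 90.5 and 113 in UCS and 82.2, 59.97 and 92.1 in UCPRP. Vehicle 1 was the highest library of all, and UCPRP again did not overlap Control or Vehicle. Log2 fold changes in Vehicle were −0.35, −0.16 and −0.03, with adjusted p of 0.217, 0.661 and 0.954 by edgeR.

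The GTPases take part in defence against intracellular pathogens and respond strongly to interferon gamma. They were not called by edgeR in any of the 6 comparisons, and DESeq2 called Irgm1 lower in UCPRP than in Control. Gbp2 stood at 89.6, 151 and 79.5 CPM in Control, 179, 186 and 83.9 in Vehicle, 91.6, 80.9 and 383 in UCS and 78.5, 57.4 and 75.1 in UCPRP. UCS 3 was the highest library, followed by Vehicle 2 and Vehicle 1, and Vehicle and UCS each overlapped Control. Irgm1 stood at 104, 135 and 93.8 CPM in Control, 122, 92.4 and 75.2 in Vehicle, 59.2, 65.3 and 157 in UCS and 58.4, 45.6 and 62.7 in UCPRP. UCS 3 was again the highest library, and UCPRP was below all of Control and all of Vehicle. Gbp3 stood at 28.4, 45.4 and 23.04 CPM in Control, 32.4, 27.4 and 31.02 in Vehicle, 20.1, 22.02 and 43.6 in UCS and 17.97, 16.8 and 21.7 in UCPRP. Control 2 and UCS 3 were the highest, at 45.4 and 43.6 CPM, and the log2 fold changes of Gbp2, Irgm1 and Gbp3 in Vehicle were 0.49, −0.20 and −0.09, with adjusted p of 0.629, 0.769 and 0.888 by edgeR.

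Ifi27l2a, which encodes a small membrane protein strongly induced by type I interferon, showed the largest log2 fold change of the 37 members in Vehicle. It stood at 72.4, 93.4 and 71.7 CPM in Control, 14.5, 15.1 and 17.4 in Vehicle, 13.4, 13.6 and 17.3 in UCS and 16.7, 9.50 and 12.4 in UCPRP (chr12:103433873-103443680). The 9 injured libraries lay together and the 3 Control libraries apart above them. The group mean fell from 79.1 ± 12.3 (SD, n = 3) in Control to 15.7 ± 1.51 in Vehicle, with a log2 fold change of −2.34 (SE 0.198, adjusted p = 8.04e-05) by edgeR.

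Ifi44, an interferon-induced protein gene that is a common marker of the response, stood at 44.8, 55.04 and 39.4 CPM in Control, 22.95, 18.9 and 23.6 in Vehicle, 12.5, 13.6 and 21.1 in UCS and 12.1, 7.03 and 15.6 in UCPRP. Every UCPRP library was below every Vehicle library, and every Vehicle library below every Control library. Xaf1, which antagonises an inhibitor of apoptosis, stood at 69.4, 64.7 and 47.9 CPM in Control, 42.8, 30.2 and 38.5 in Vehicle, 30.4, 36.6 and 40.9 in UCS and 32.9, 22.3 and 28.3 in UCPRP. Control did not overlap any injured group, and the log2 fold changes in Vehicle were −1.09 (SE 0.27, adjusted p = 0.0174) and −0.71 (SE 0.191, adjusted p = 0.0264) by edgeR.

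Lgals3bp, a secreted galectin-binding glycoprotein gene, stood at 188, 218 and 159 CPM in Control, 219, 179.7 and 187 in Vehicle, 200.3, 198 and 187 in UCS and 211, 136 and 177 in UCPRP. Psmb8, an immunoproteasome subunit that trims antigens, stood at 72.5, 133 and 77.7 CPM in Control, 80.9, 86.99 and 73.2 in Vehicle, 75.9, 68.3 and 152 in UCS and 78.6, 65.1 and 64.8 in UCPRP. Neither separated the groups, with Psmb8 highest in UCS 3 and Control 2. Rtp4, a receptor chaperone with antiviral activity, stood at 91.8, 138 and 73.1 CPM in Control, 75.8, 53.4 and 55.7 in Vehicle, 40.1, 38.7 and 64.4 in UCS and 40.5, 27.99 and 46.6 in UCPRP. Vehicle 1 overlapped Control 3, while UCS and UCPRP were below all Control libraries. In Vehicle the log2 fold changes were 0.05 for Lgals3bp, −0.23 for Psmb8, −0.71 for Rtp4 and −0.54 for Ifi35, with adjusted p of 0.884, 0.689, 0.113 and 0.0703 by edgeR.

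The UCS and UCPRP groups were also set against Control, which they share with the Vehicle comparison, so the 3 sets of values are not independent. In UCS, 19 of 37 members (51.4%) were lower than in Control and none was higher by edgeR, against 4.47% of all genes lower and 6.4% higher, 10.9% in all. The members' median log2 fold change was −0.733, and −0.013 over all genes. In 24 members every UCS library lay below every Control library, against 14% of all genes, and the reverse held for none, against 14.9%. The count was 12 without UCS 1 (3.45% of all genes lower) and 12 without UCS 2 (2.73%). In UCPRP, 25 of 37 members (67.6%) were lower and none was higher, against 5.07% of all genes lower and 5.3% higher, 10.4% in all. The median was −1.01 against 0.039 over all genes, all 37 values were below 0, and in 34 members UCPRP lay wholly below Control, against 13.7% of all genes. In none did it lie wholly above, against 14.5%.

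By edgeR, 15 of the 37 members were lower than Control in all 3 injured groups, 5 in 2 of them, 5 in 1 and 12 in none. Over all genes the shares were 3.45%, 1.47%, 3.18% and 91.9%. DESeq2 called 4 of the 12 lower in UCPRP, namely Irgm1, Stat2, Parp14 and Zbp1. The 5 called by edgeR in UCPRP and in neither other group were Eif2ak2, Herc6, Parp9, Dtx3l and Ifi35, and DESeq2 called Ifi35 in all 3 groups. Rsad2 went from 28.8 ± 18.4 CPM in Control (SD, n = 3) to 7.03 ± 0.495 in UCS and 4.92 ± 0.728 in UCPRP. Its log2 fold changes against Control were −2.03 (SE 0.421, adjusted p = 0.00942) and −2.54 (SE 0.431, adjusted p = 0.00359) by edgeR. Ifit1, Cmpk2 and Rtp4 were likewise called by edgeR in UCS and UCPRP but not in Vehicle, where DESeq2 called Ifit1 and Cmpk2, with log2 fold changes in UCPRP of −1.81, −1.48 and −1.40. That a call was made in one group and not in another does not show a difference between those groups, which was tested directly.

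The direct tests compared each biologic with Vehicle. In UCS against Vehicle no member was called by edgeR, DESeq2 or limma-voom, and 1 member, Rsad2, had an unadjusted p under 0.05 by edgeR (4.85% of all genes). The percentage of all genes called was 0% by edgeR, but 37 genes, none a member, were called when Vehicle 3 was left out. The members' median log2 fold change was −0.0834, with 26 of 37 below 0 (all genes, 51.6%). This median turned to 0.032 without Vehicle 1 and was −0.213 without UCS 3, −0.186 without Vehicle 2, −0.053 without UCS 1, −0.025 without UCS 2 and −0.162 with a clock term. Rsad2 had −1.07 (SE 0.414, adjusted p = 0.965), with a 95% interval of −1.98 to −0.16, and it and Cmpk2 were the 2 members in which every UCS library was below every Vehicle library (4.45% of all genes). None had every UCS library above every Vehicle library (5.01% of all genes). For Isg15 the difference was −0.38 with an interval of −0.98 to 0.21, and for Oasl1 it was 0.34 with an interval of −0.12 to 0.79.

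In UCPRP against Vehicle no member was called by edgeR or limma-voom, 11 had an unadjusted p under 0.05 by edgeR (9.75% of all genes), and DESeq2 called 1, Rsad2. Across all genes edgeR called 0%, but 195 genes, none a member, when Vehicle 3 was left out. The members' median log2 fold change was −0.392, against 0.031 over all genes, and 36 of 37 values were below 0, against 44.7% of all genes. With retina and lens terms in the fit the median was −0.251. Clock gene levels also differed between these 2 groups, as given below. In 13 members every UCPRP library lay below every Vehicle library, against 7.13% of all genes, and in none above, against 6.69%. Rsad2 had the largest difference, −1.58 (SE 0.422, adjusted p = 0.337) by edgeR with a 95% interval of −2.51 to −0.66. Gbp2 followed at −1.09, with an interval of −2.28 to 0.10 that includes 0, and then Zbp1 and Ifi44 at −0.97 and −0.91. Oasl1 was the single member above 0, at 0.09.

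**Figure D3:**
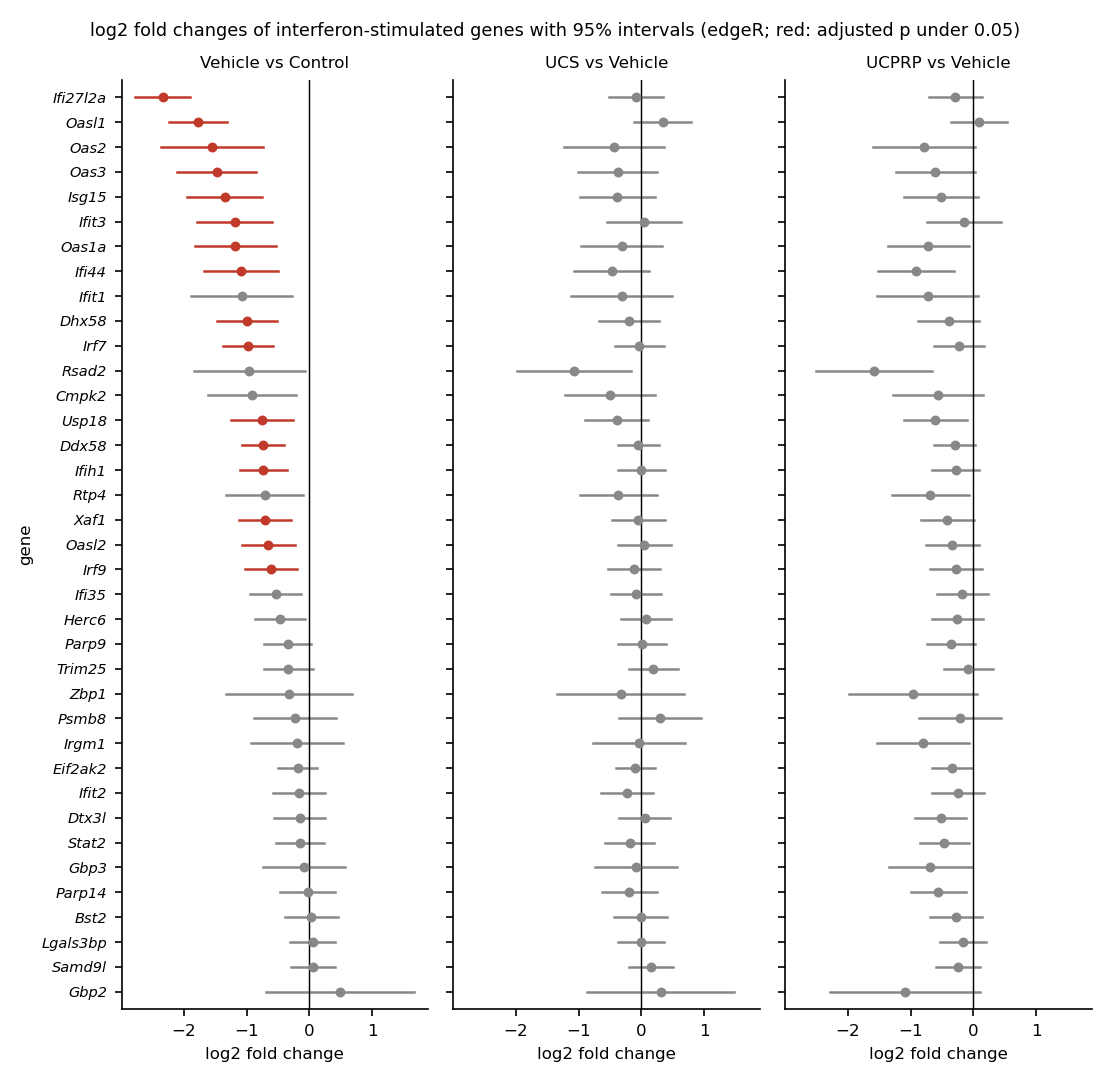
Log2 fold changes of the 37 members (rows, ordered by Vehicle against Control) with 95% intervals from edgeR for Vehicle against Control, UCS against Vehicle and UCPRP against Vehicle; red marks an adjusted p under 0.05. The 16 called members are in the Vehicle against Control panel, and none is called in the other panels, where the UCPRP values lie mostly left of 0.

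UCPRP and UCS were given at the same dose and schedule, so 1 pair of preparations could be compared at matched dose, in 37 members. No member was called by edgeR, DESeq2 or limma-voom, 4 had an unadjusted p under 0.05 by edgeR (2.44% of all genes) and edgeR called 0% of all genes. All 37 log2 fold changes were below 0 (all genes, 45.9%), with a median of −0.28 against 0.017 over all genes. The median was −0.161 without UCS 3, −0.174 without UCPRP 2 and −0.164 with retina and lens terms. In these fits 1, 4 and 5 members changed sign, in the same order. Dtx3l had −0.57 (SE 0.186, adjusted p = 0.985) with an interval of −0.98 to −0.17, and Gbp2 had −1.40 (SE 0.546, adjusted p = 0.985) with an interval of −2.60 to −0.20. That Gbp2 difference rested on UCS 3, and without it the value was −0.29 with an interval of −1.07 to 0.48. UCPRP lay wholly below UCS in 10 members, against 5.75% of all genes, and wholly above it in none, against 4.91%. Over the 4 groups, the lowest mean was in UCPRP for 36 of 37 members (18.7% of all genes) and the highest in Control for 32 (34.3% of all genes).

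Within a group, the same library was the highest or the lowest in most members. Control 2 was the highest Control library in 34 of 37 members and Control 3 the lowest in 35. Vehicle 1 was the highest Vehicle library in 29, UCS 3 the highest UCS library in 27, and UCPRP 2 the lowest UCPRP library in 33. The summed level of the 37 members was 4216, 5586 and 3660 CPM in Control, 3531, 2624 and 2794 in Vehicle, 2795, 2508 and 3568 in UCS and 2509, 1924 and 2429 in UCPRP. Vehicle 1 and UCS 3 came close to Control 3 in this sum without reaching it, and UCPRP 2 was the lowest of the 12. Control 2 also had the smallest TMM factor, 0.825, and the highest Krt12 level.

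Among the genes upstream of the members, the 2 interferon lambda genes in the table were the ligands with enough counts to test. Ifnl2 had 63.2, 59.9 and 76.5 estimated counts in the Control libraries, 1 count in Vehicle 3 and 0 in the other 8 injured libraries. Ifnl3 had 45.8, 55.1 and 54.5 counts in Control and 0 in all 9 injured libraries. Control and the injured groups therefore did not overlap in either gene. Against a floor of 3 counts per library, Ifnl3 was at least 18.6-fold lower in Vehicle, at least 17.9-fold lower in UCS and at least 18.0-fold lower in UCPRP. Ifnl2 was at least 22.8-fold lower in UCS and at least 23.0-fold lower in UCPRP, and in Vehicle the ratio of counts was 213.8, with an exact 95% interval of 37.9 to 8487.2. These intervals and floors cover counting error only. Both genes passed the filter on low counts only through the Control libraries, so edgeR could call them lower or not at all. It called both lower in all 3 injured groups, which is no evidence beyond the counts above. The 2 genes share 11.1% and 13.9% of their stretches of 100 bases, so counts are uncertain between them. Their part in the levels of the members was not tested.

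Other interferons were at the limit of detection. Ifng had at most 9 counts in a library, in UCS 3, Ifnz at most 6.74 and Ifnb1 at most 4, in Control 2, while Ifna1 and Ifne were at 0 in every library. These genes were too low to be tested, and 3 counts correspond to 0.147 to 0.162 CPM before TMM scaling.

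In Vehicle the receptor genes were higher than in Control or were not called. Of 6 receptor genes, 2 were higher in Vehicle and none was lower by edgeR, against 9.58% of all genes higher and 6.92% lower, the shares that also stand behind the pathway counts that follow. Ifnar2 stood at 31.6, 36.1 and 28.8 CPM in Control, 53.4, 45.1 and 47.1 in Vehicle, 45.1, 47.9 and 45.8 in UCS and 45.3, 44.3 and 39.9 in UCPRP. Control did not overlap any injured group, and the log2 fold change in Vehicle was 0.59 (SE 0.104, adjusted p = 0.00252) by edgeR. Ifngr1, a chain of the interferon gamma receptor, stood at 71.9, 78.6 and 96.4 CPM in Control and 198, 164 and 110.3 in Vehicle, with a log2 fold change of 0.93 (SE 0.195, adjusted p = 0.00688) by edgeR. Ifnlr1, the chain specific to interferon lambda, stood at 22.9, 26.8 and 23.9 CPM in Control, 20.5, 16.7 and 14.1 in Vehicle, 26.6, 17.2 and 18.5 in UCS and 17.2, 14.99 and 11.9 in UCPRP. Vehicle was wholly below Control with a log2 fold change of −0.52 (SE 0.196, adjusted p = 0.103), and the UCPRP difference of −0.74 (SE 0.197, adjusted p = 0.0353) passed by edgeR.

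Of 9 kinases, STAT and IRF factors outside the member list, 1 was lower in Vehicle and 1 was higher. Jak1 fell by 0.43 on the log2 scale (adjusted p = 0.0221) by edgeR, a call lost without Control 2, Vehicle 2 or Vehicle 3. Irf8, a factor of myeloid cells, rose by 1.37 (SE 0.214, adjusted p = 0.00128) by edgeR. Irf1, a factor that interferon gamma induces, had the highest mean CPM of the list. It stood at 205, 341 and 205 CPM in Control, 255, 196 and 186 in Vehicle, 253, 205 and 249.9 in UCS and 179, 185 and 154 in UCPRP. Control 2 was the highest library and Vehicle overlapped Control, and the log2 fold change in Vehicle was −0.24 (SE 0.204, adjusted p = 0.509) by edgeR.

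Of 12 adaptors and sensors outside the member list, 3 were higher in Vehicle and none was lower. Sting1, the adaptor of cytosolic DNA sensing, stood at 9.17, 10.2 and 8.80 CPM in Control, 41.1, 37.5 and 22.8 in Vehicle, 23.5, 24.3 and 39.4 in UCS and 19.9, 17.1 and 21.2 in UCPRP. All injured libraries were above Control, with Vehicle 1, Vehicle 2 and UCS 3 the highest, and the log2 fold change in Vehicle was 1.85 (SE 0.245, adjusted p = 0.000499) by edgeR. Mavs, the mitochondrial adaptor of the RIG-I-like sensors, stood at 79.7, 96.6 and 85.7 CPM in Control and 82.8, 66.3 and 84.7 in Vehicle and was not called. Tlr7 and Tlr9, endosomal sensors of RNA and DNA, rose by 0.87 (SE 0.176, adjusted p = 0.00586) and 1.92 (SE 0.337, adjusted p = 0.0026) by edgeR.

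Of 9 negative regulators and nucleases, 3 were higher in Vehicle and none was lower. Isg20, an exonuclease gene that interferon can induce, stood at 2.37, 2.91 and 2.32 CPM in Control, 18.8, 15.4 and 12.97 in Vehicle, 11.1, 8.78 and 15.01 in UCS and 8.27, 11.6 and 8.74 in UCPRP. Every injured library was above every Control library, with a log2 fold change in Vehicle of 2.63 (SE 0.239, adjusted p = 9.85e-05) by edgeR. Samhd1, a nucleotide hydrolase that restricts viruses in myeloid cells, rose by 0.998 (SE 0.225, adjusted p = 0.0106) by edgeR. Socs3, a feedback inhibitor of cytokine receptors, stood at 7.72, 10.6 and 8.54 CPM in Control, 99.9, 86.8 and 22.3 in Vehicle, 16.7, 21.4 and 31.2 in UCS and 23.5, 15.1 and 18.4 in UCPRP. Vehicle 1 and Vehicle 2 were far above the rest, and the log2 fold change of 2.96 (SE 0.47, adjusted p = 0.00139) by edgeR was not called when both were left out.

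**Figure D4:**
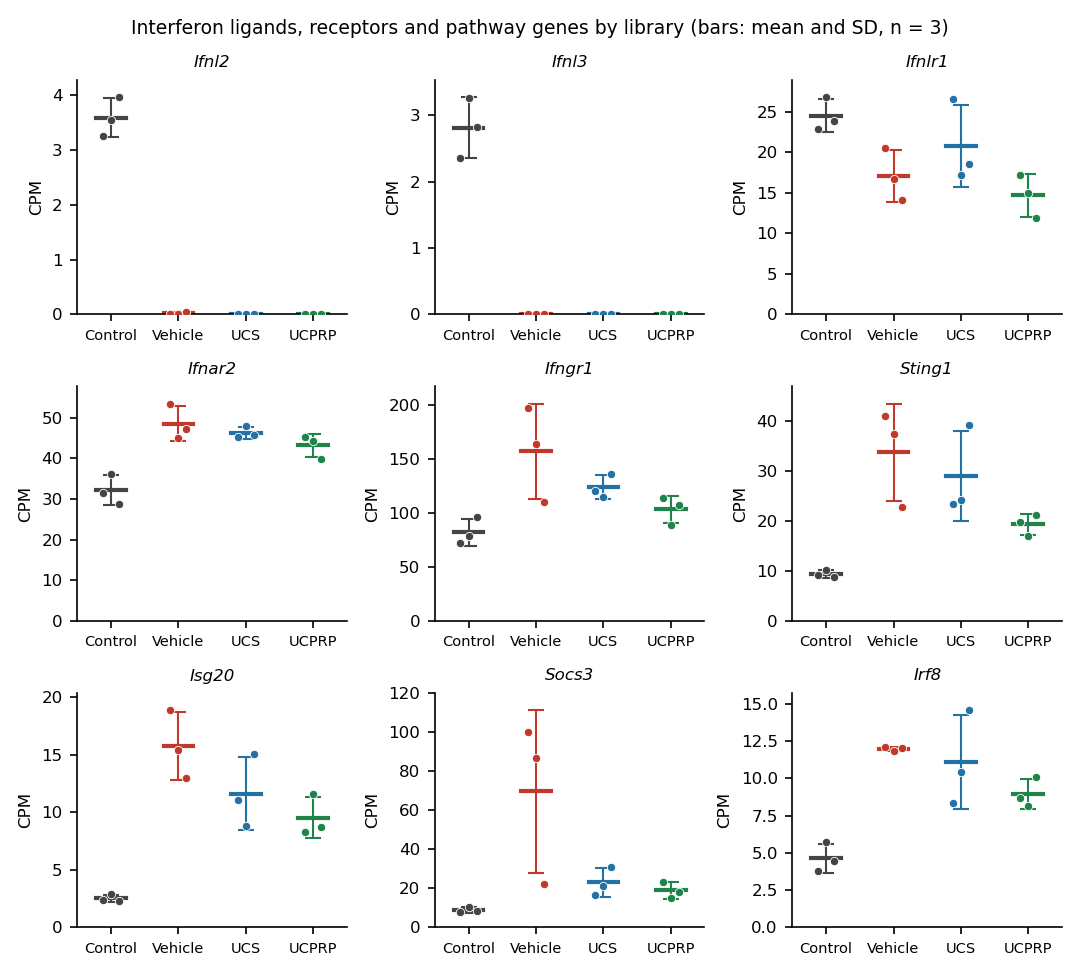
CPM of 9 ligand, receptor and regulator genes of the interferon pathway in the 12 libraries, with points for libraries, thick bars for group means and error bars for the SD (n = 3). Ifnl2 and Ifnl3 are found in the 3 Control libraries and are at or near 0 in the 9 injured libraries, and Sting1 and Isg20 are higher in every injured library than in Control.

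A list of genes best known for induction by interferon gamma was read beside the members. Of its 20 tested genes, 1, the class II regulator Ciita, was higher in Vehicle and none was lower, with a median log2 fold change of 0.266. In UCS, Ciita and Cd74 were called higher than in Control by edgeR, and both calls were lost without UCS 3. In UCPRP, Gbp7 was called lower, a call lost in 11 of 23 alternative settings. B2m, the light chain of class I antigen presentation, had the highest mean CPM of the list. It stood at 649, 846 and 815 CPM in Control and 1005, 1027 and 710.3 in Vehicle, which overlapped. The Ciita call in Vehicle was lost when any 1 of Control 1, Control 2, Vehicle 1, Vehicle 2 or Vehicle 3 was left out. The summed level of the list was 1838, 2590 and 2184 CPM in Control, 2937, 2967 and 2195 in Vehicle, 2277, 2086 and 4867 in UCS and 2207, 1825 and 2242 in UCPRP. UCS 3 was the highest library for this sum, as it was for Gbp2, Irgm1 and Psmb8, while for Zbp1 it was below Control 2. The summed level of 8 T and NK cell markers was 21.03 CPM in UCS 3 and 5.09 to 10.9 in the other 11 libraries, and its part in these values was not tested.

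Markers of other cells moved with the comparison of Vehicle against Control, and their part in the members' levels was not tested. Over all genes edgeR called 6.92% lower and 9.58% higher, the shares behind the marker counts that follow. The 10 corneal epithelial markers summed to 52550, 86200 and 42620 CPM in Control and 16970, 14840 and 15440 in Vehicle, and 8 of the 10 were lower. Krt14, a basal keratin, went the other way, from 496 to 867 CPM in Control to 3642 to 5808 in Vehicle, and Clu was not called. Krt5, its partner in basal cells, stood at 11210 to 22560 CPM in Control and 5949 to 7101 in Vehicle. All 8 conjunctival and goblet cell markers were higher in Vehicle, from sums of 2681 to 6216 CPM in Control to 13060 to 18930. Of 10 macrophage and monocyte markers 9 were higher, from 171 to 239.8 CPM to 640 to 849. Neutrophil markers summed to 422, 421 and 80.8 CPM in Vehicle and 10.8 to 17.6 in Control. S100a8, S100a9, Csf3r and Cxcr2 carried this rise. Ly6g, on the same list, went the other way, at 0.6479 to 1.057 CPM in Vehicle against 1.197 to 1.745 in Control. Mpo, Elane, Camp and Ngp were at most 0.1607 CPM in any library. Siglech, the defining marker of plasmacytoid dendritic cells, which make much type I interferon, lay between 0.763 and 2.73 CPM in all 12 libraries. Of 6 plasmacytoid dendritic cell markers, Il3ra was higher in Vehicle, at 11.69 to 12.18 CPM against 6.63 to 8.86 in Control, and the other 5 were not called by edgeR. The list summed to 117 to 175 CPM in Control and 156 to 201 in Vehicle.

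Between UCPRP and Vehicle no marker was called by edgeR, but some did not overlap, and their part in the members' values was not tested. Of the 10 macrophage and monocyte markers, 7 were lower in every UCPRP library than in every Vehicle library, which held for 7.13% of all genes. Their list summed to 640 to 849 CPM in Vehicle and 537 to 551 in UCPRP. Every UCPRP library was also below every Vehicle library for 4 of 8 conjunctival and goblet cell markers, Muc5ac among them, and for Pecam1 and Cdh5 of the 4 blood vessel markers.

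**Figure D5:**
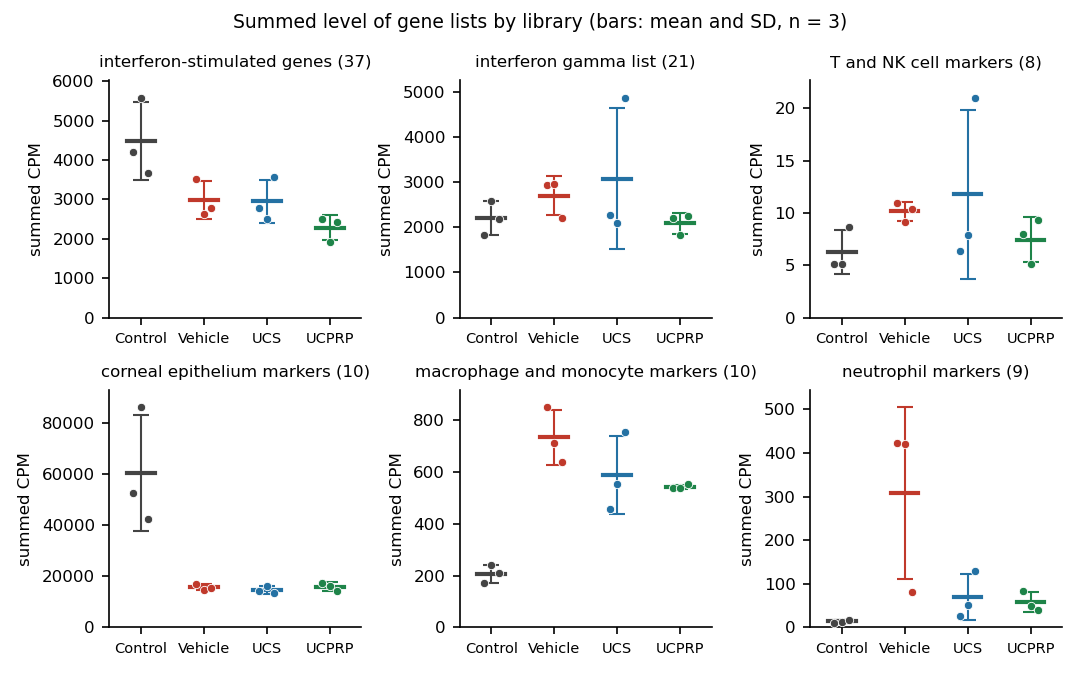
Summed CPM per library of the 37 members, 21 genes best known for induction by interferon gamma and 4 lists of cell type markers, with points for libraries, thick bars for group means and error bars for the SD (n = 3). The member sum and the corneal epithelial sum are highest in the 3 Control libraries, the macrophage sum is lowest there, and UCS 3 is the highest library for the interferon gamma and T and NK cell lists.

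The libraries also differed in Dbp, an output gene of the circadian clock, which ranged from 14.7 to 25.9 CPM in Control 3, Vehicle 1, Vehicle 2 and UCS 1 and from 139 to 280.3 in the other 8. The labels give no hour of collection, and the split was made after the data were seen. Each split leaves 1 group of this comparison with a single library, which is assumed to vary like the other groups in the fit. Among high-Dbp libraries (Control 1 and 2 against Vehicle 3) 2 members, Ifi27l2a and Oasl1, were called lower in Vehicle (1.1% of all genes), and the median log2 fold change was −0.829. Among low-Dbp libraries (Control 3 against Vehicle 1 and 2) 1 member, Ifi27l2a, was called (0.154% of all genes lower) and the median was −0.217. Ifi27l2a had log2 fold changes of −2.26 and −2.28 in the high-Dbp and low-Dbp libraries, and Isg15 had −1.39 and −0.95. A fit over all 12 libraries with a clock term called 12 members lower in Vehicle (5.22% of all genes). The UCPRP libraries were all high in Dbp and Vehicle 1 and 2 were low, so UCPRP against Vehicle is also a clock contrast. There, 742 genes had an unadjusted p under 0.05 by edgeR with the clock term, against 1572 without it. With that term 0 members changed sign and 0 were called. The part of the clock in the members' values was not tested.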

How the data were processed

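RNA from pooled corneas was made into stranded total RNA libraries, per the labels' protocols. HISAT and the GRCm38 build are named in the submitters' processing notes. No source used here gives the counting tool or whether it used strand. The authors deposited 1 table of estimated counts per gene, of which 64.9% of values were whole. They were rounded to whole numbers.

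The main test was edgeR 4.0.16 (R 4.3.3) quasi-likelihood on all 12 libraries with 1 term per group, TMM scaling, filterByExpr (minimum count 10) and Benjamini-Hochberg adjustment over all genes tested, with a threshold of 0.05. The common biological coefficient of variation was 0.227. The fit was tested on simulated data. Alternatives were DESeq2 1.42.0, limma 3.58.1 (voom), other scalings and filters, a replicate block, clock, retina and lens terms, only the groups compared, and each library left out.

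Members, gene lists and tests were chosen with earlier results of these data known. Groups come from the treatment labels. Library values are given for the 3 members of each role with the highest mean CPM, each member called in Vehicle against Control and, chosen after their values were seen, Rsad2 and Cmpk2. Pathway genes are named where called in Vehicle against Control, together with the gene of highest mean CPM in each list. Ifnlr1, Cd74 and Gbp7, called in UCS or UCPRP but not in Vehicle, were named outside this rule, as were ligands too low to test. Member positions and promoters come from RefSeq (GRCm38.p6). Some pathway genes are not reported here.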

Additional observations from a re-analysis of the deposited data

How the results depend on the processing

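The counts of members lower than Control were 16 (Vehicle), 19 (UCS) and 25 (UCPRP). With each library left out in turn they ran from 9 to 20, from 12 to 20 and from 18 to 27. The shares of all genes lower ran from 3.85% to 6.87%, from 2.62% to 4.41% and from 2.76% to 5.28%. With only the 2 groups compared in the fit, the Vehicle count was 10 (3.82% of all genes lower). Of alternatives chosen after seeing the data, high-Dbp libraries gave 2 and low-Dbp libraries 1 for Vehicle and 0 for UCS, Control 2 and UCS 3 left out together gave 10 and 11, and Vehicle 1 and 2 left out together gave 2. These fits have fewer samples, and with Control 2 and UCS 3 left out together 4.62% and 1.8% of all genes were lower. The low-Dbp fit sets UCS 1 alone against Control 3 alone, so its 0 for UCS cannot show that the difference was lost. The members' median log2 fold change there was −0.589 in UCS (all genes, −0.00266). In high-Dbp libraries the median was −0.803 in UCS (all genes, −0.00464) and −1.114 in UCPRP (all genes, 0.035). Low-Dbp libraries gave Rsad2 in Vehicle a log2 fold change of 0.27, and 8 members in all changed sign there. DESeq2 called 1 member lower in UCPRP against Vehicle, and the cause was not tested. Leaving aside the alternatives chosen after seeing the data, in all 23 settings 7 of the 16, 11 of the 19 and 18 of the 25 members kept their call. The 7 were Ddx58, Dhx58, Irf7, Oas3, Oasl1, Isg15 and Ifi27l2a. Scaling by library totals left the Vehicle count at 16 but moved the median of all genes by 0.11 and the split of all genes from 1545 higher and 1116 lower to 2020 and 868. DESeq2 called 145 of all genes in UCPRP against Vehicle and 13 in UCS against Vehicle, where edgeR called none, or 195 and 37 without Vehicle 3. Deviations from the group means correlated between −0.581 and 0.494 for samples with the same replicate number. Samples with different numbers were not compared, so these values do not show whether the numbers pair them. With the replicate block 14, 17 and 22 members were lower than Control in Vehicle, UCS and UCPRP, and none differed from Vehicle. The shares of all genes lower than Control in that fit were 5.73%, 3.79% and 4.25%. With 3 pools per group, small differences were not detectable.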
